A study of Mus musculus with 6 samples.

Results

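The genes described here carry glucose from the cell surface to pyruvate and decide whether that pyruvate enters the mitochondrion. They comprise 32 genes for glucose transporters, the enzymes of glycolysis with their main isoforms, the phosphoglucomutases that join glycolysis to glycogen, and the kinases, phosphatase and core subunits of the pyruvate dehydrogenase complex. Each was found by its symbol in a gene count table of 25701 genes, and all 32 were among the 13485 genes with enough counts to test. The libraries were made from CD11b+ cells that magnetic beads had selected from digested tumors, grown for 24 days in the flank after injection of 100000 TC1 cells, a mouse lung epithelial tumor line, per mouse. The comparison asked how RNA of these cells differed between 3 MCT2 KO and 3 MCT2 CO libraries. MCT2, encoded by *Slc16a7*, is a plasma membrane carrier of lactate, pyruvate and ketone bodies.

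The mice were young males on a C57BL/6 background that carried MCT2 loxP/loxP and a tamoxifen-inducible Cre transgene (mCre-Tg), and treatment began at 8 weeks of age. MCT2 KO mice received tamoxifen at 0.18 mg per g body weight and MCT2 CO mice received the vehicle. Tamoxifen, Cre activity and loss of MCT2 therefore came together and cannot be told apart. The paper reports larger tumors in MCT2 KO mice and says that larger tumors may become hypoxic. Tumor size thus also differed between the groups and cannot be told apart from these factors. The deletion was systemic, so cells outside the CD11b+ fraction could lose MCT2 as well. Lung is the labelled tissue, but by the methods the tumors grew in the flank. The labels number the libraries as replicates without saying that each came from a separate mouse, so p-values measure only the spread between these libraries, which may be technical.

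Libraries held 24863611 to 31713704 counts assigned to genes. *Slc16a7* was counted at 16, 11 and 11.2 CPM (counts scaled to a common library size and corrected for library composition) in MCT2 CO and at 8.22, 4.97 and 5.34 CPM in MCT2 KO. All 3 MCT2 KO libraries lay below all 3 MCT2 CO libraries, with a log2 fold change of -1.05 (SE 0.24) and transcript remaining in each. The macrophage marker list was well represented, with all 10 genes tested and a summed level of 7175 to 10841 CPM in MCT2 CO and 6977 to 14709 CPM in MCT2 KO. *Itgam*, the gene for CD11b itself, had 1 count in all, and 99.1% of its exon bases lie inside another listed gene, so it could not be used to check the selection. On the 500 most variable genes, MCT2 CO replicate 3 stood apart on the first principal component (-22.7, against -3.54 and -3.13 for the other controls) and MCT2 KO replicate 2 on the second (22.5, against -9.26 and -5.53 for the other knockouts). For several genes, values are therefore also given without these libraries.

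Glycolysis splits glucose into pyruvate in the cytosol, spending ATP in its early steps and regaining more of it, with NADH, in the later ones. Pyruvate is then either reduced to lactate or oxidized to acetyl-CoA by the pyruvate dehydrogenase complex, which pyruvate dehydrogenase kinases switch off by phosphorylation and pyruvate dehydrogenase phosphatases switch on again. Macrophages raise glycolytic genes upon inflammatory activation and under low oxygen, where the transcription factor HIF-1 binds a short core sequence near many of them.

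The core that HIF-1 recognizes is ACGTG or GCGTG, so the sequences before the start sites of the genes with the clearest differences are shown. They run 5′ to 3′ along the gene's own strand over the 250 bases before a RefSeq start (GRCm38.p6). Capitals mark every ACGTG or GCGTG, also where it lies on the opposite strand and reads CACGT or CACGC. *Pdk1* and *Pgm1* were the pair that DESeq2 called below, *Gapdh* and *Eno1* represent the later steps, and *Gpi1* is shown because it differed with no core in its window.
Pdk1, chr2:71872974-71873223, plus strand: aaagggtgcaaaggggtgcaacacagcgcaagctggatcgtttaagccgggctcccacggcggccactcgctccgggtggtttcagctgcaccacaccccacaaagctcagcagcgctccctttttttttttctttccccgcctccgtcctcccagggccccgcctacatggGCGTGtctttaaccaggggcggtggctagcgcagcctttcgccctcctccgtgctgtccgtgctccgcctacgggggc
Pgm1, chr4:99929201-99929450, plus strand: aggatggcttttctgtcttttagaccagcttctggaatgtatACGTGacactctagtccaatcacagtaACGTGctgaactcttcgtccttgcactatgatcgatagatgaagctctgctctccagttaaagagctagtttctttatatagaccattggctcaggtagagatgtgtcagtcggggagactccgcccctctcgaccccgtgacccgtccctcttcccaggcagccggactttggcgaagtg
Gapdh, chr6:125165774-125166023, minus strand: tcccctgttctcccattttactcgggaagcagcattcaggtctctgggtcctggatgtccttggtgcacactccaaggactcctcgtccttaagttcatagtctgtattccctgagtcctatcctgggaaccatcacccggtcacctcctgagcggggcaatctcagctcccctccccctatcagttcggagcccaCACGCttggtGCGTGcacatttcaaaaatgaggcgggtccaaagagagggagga
Eno1, chr4:150236947-150237196, plus strand: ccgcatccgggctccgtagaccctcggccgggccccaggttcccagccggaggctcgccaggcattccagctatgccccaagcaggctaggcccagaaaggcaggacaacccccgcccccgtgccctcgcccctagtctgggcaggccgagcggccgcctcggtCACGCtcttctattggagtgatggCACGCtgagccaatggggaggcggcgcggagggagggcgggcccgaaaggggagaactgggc
Gpi1, chr7:34230337-34230586, minus strand: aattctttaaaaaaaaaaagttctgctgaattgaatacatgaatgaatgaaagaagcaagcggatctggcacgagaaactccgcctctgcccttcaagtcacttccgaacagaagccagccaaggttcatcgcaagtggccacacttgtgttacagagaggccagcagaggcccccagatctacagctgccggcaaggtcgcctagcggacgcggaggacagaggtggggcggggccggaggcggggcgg

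The core closest to the start in these stretches lay 78 bases upstream in *Pdk1*, 181 in *Pgm1*, 44 in *Gapdh* and 62 in *Eno1*. Another *Pdk1* core begins 2 bases upstream and crosses the start, so the stretch cuts it off. Another *Gapdh* core lies 42 bases past the start. *Pdk1* has another annotated start, whose window held no core, and *Eno1* has 2 others, whose windows each held 2. The later of these *Eno1* windows overlaps the stretch shown and repeats its 2 cores. Start windows of 300 bases, reaching 50 bases past the start, were present for 30 of the 32 genes (45 windows in all). Some windows of the same gene overlap, so a core can be counted repeatedly. A core was found on either strand in 80% of these windows, against 59.9% of the windows of all genes tested and 43.8% of all 32851 windows. The median GC content was 61% for the 45 windows and 60.3% for those of all genes tested. CACGTG, which holds ACGTG on both strands, was in 8.89% of the windows and in 9.46% of those of all genes tested. The windows without any core included the only ones of *Gpi1*, *Tpi1* and *Eno2*. *Hk2* and *Pdk3*, whose RNA did not pass any threshold below, held 2 and 4 cores. A match describes letters in these windows and does not show that a factor binds there.

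Most of the 32 genes were slightly higher in MCT2 KO, and none was called by the main test. The log2 fold change (MCT2 KO relative to MCT2 CO) was above 0 for 25 genes and below 0 for 7, whereas 50.1% of all genes tested were above 0. Its median was 0.25 over the 32 genes and 0.00 over all genes tested. In edgeR's quasi-likelihood test, an unadjusted p under 0.05 was reached by 14 of the 32 genes and by 9.37% of all genes tested. It was reached by 13 genes that were higher, where 3.77% of all genes tested did so, and by 1 gene that was lower, where 5.6% did so. In 12 genes every MCT2 KO library exceeded every MCT2 CO library, as in 7.07% of all genes tested, and in 1 gene every MCT2 KO library was lower, as in 8.77%.

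After Benjamini-Hochberg adjustment over all genes tested, the edgeR adjusted p of the 32 genes ranged from 0.37 to 0.996. No gene of the 13485, and so 0% of them, passed an adjusted p of 0.05 with an absolute log2 fold change of 0.58, while 1264 had an unadjusted p under 0.05. DESeq2, the tool of the study, called *Pgm1* and *Pdk1* at these thresholds on the same counts, with 0.584% of all genes called. At an adjusted p of 0.05 and any fold change, DESeq2 passed 5 of the 32 genes, *Gpi1*, *Gapdh*, *Eno1*, *Pgm1* and *Pdk1*, all of them higher, with 0.775% of all genes passing and 0.331% passing as higher. Below, "rose" is used only for those 5 and refers to the DESeq2 result.

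**Figure D1:**
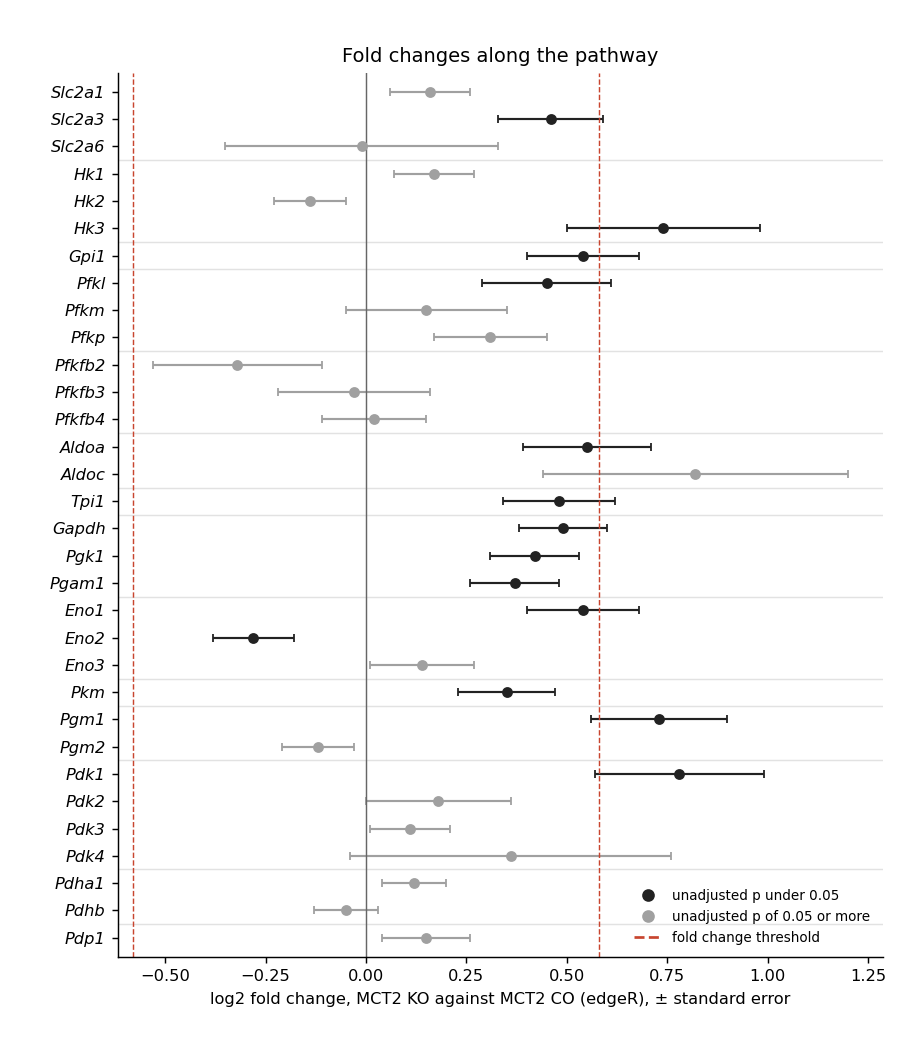
log2 fold change (MCT2 KO relative to MCT2 CO, edgeR) of each of the 32 genes in pathway order, with bars for ± 1 standard error from the fit of 3 against 3 libraries and dashed lines at an absolute value of 0.58. Genes at an unadjusted p under 0.05 are black, and most lie between 0.35 and 0.55, with *Hk3*, *Pgm1* and *Pdk1* beyond 0.58 and *Eno2* as the single black point below 0.

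Glucose entry differed little. *Slc2a1* encodes GLUT1, the main basal glucose transporter, and made up 96.8% of the summed per-length level of the 3 transporters in either group. It stood at 271, 331 and 295 CPM in MCT2 CO and at 316, 333 and 352 CPM in MCT2 KO, and the groups overlapped. *Slc2a3*, for the high-affinity transporter GLUT3, was counted at 7.17, 6.46 and 6.92 CPM in MCT2 CO and at 9.14, 8.9 and 10.2 CPM in MCT2 KO. Its groups did not overlap and its log2 fold change was 0.46 (SE 0.13), although the gene was counted at a small fraction of the *Slc2a1* level. *Slc2a6*, for the lysosomal transporter GLUT6 found in leukocytes, ranged from 3.64 to 7.53 CPM in MCT2 CO and from 3.71 to 7.63 CPM in MCT2 KO, with full overlap.

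The hexokinases, which trap glucose as glucose-6-phosphate, differed by isoform. *Hk3*, a hexokinase prominent in myeloid cells, stood at 36.7, 58.9 and 35.5 CPM in MCT2 CO and at 65.3, 59 and 94.7 CPM in MCT2 KO. The groups touched without crossing, since the highest control lay just under the lowest knockout, and the log2 fold change was 0.74 (SE 0.24, edgeR adjusted p = 0.436). *Hk2*, the inducible form on the mitochondrial surface, stood at 108, 119 and 128 CPM in MCT2 CO and at 107, 104 and 110 CPM in MCT2 KO. Its values overlapped only through MCT2 CO replicate 1, and its log2 fold change was -0.14 (SE 0.09). *Hk1*, the constitutive form, had a log2 fold change of 0.17 (SE 0.10), with overlap. Markers of neutrophils, which carry CD11b as well, were partly higher too. Of 9 tested genes 6 were higher at an unadjusted p under 0.05 and in every MCT2 KO library, and DESeq2 called 5. The list's sum was 88.9 to 107 CPM in MCT2 CO against 193, 75.1 and 142 CPM in MCT2 KO. Most of that sum was *Csf3r*, at 93, 94.3 and 70.9 CPM in MCT2 CO and 120, 41.1 and 118 CPM in MCT2 KO. *S100a9* was 2.58 to 4.18 CPM in MCT2 CO and 20.9, 9.12 and 7.63 CPM in MCT2 KO. The part of neutrophils in the *Hk3* values was not tested, and in bulk samples more cells of a type and more RNA per cell cannot be told apart.

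The isomerase and the first committed step came next. *Gpi1*, phosphoglucose isomerase (chr7:34201330-34230336, minus strand, GENCODE M21 on GRCm38), rose from 335, 424 and 293 CPM in MCT2 CO to 497, 513 and 516 CPM in MCT2 KO. The knockout libraries lay within a narrow band above every control, and the fold was 1.45 (log2 fold change 0.54, SE 0.14, DESeq2 adjusted p = 0.0343, edgeR adjusted p = 0.39). The lowest log2 fold change over the alternative fits, which include leaving out both libraries that stood apart, was 0.42. *Pfkl*, the liver-type phosphofructokinase, ranged from 111 to 172 CPM in MCT2 CO and from 170 to 196 CPM in MCT2 KO. It reached an unadjusted p under 0.05 with a log2 fold change of 0.45 (SE 0.16), but MCT2 CO replicate 2 lay just above the lowest knockout, and the value was 0.27 without the 2 libraries that stood apart. *Pfkp*, the platelet type, had a log2 fold change of 0.31 (SE 0.14) and *Pfkm*, the muscle type, 0.15 (SE 0.20), both with overlapping groups.

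The bifunctional enzymes that make or remove fructose 2,6-bisphosphate, the strongest activator of phosphofructokinase, showed no common direction. *Pfkfb3*, the form with the highest kinase activity, ranged from 99.3 to 114 CPM in MCT2 CO and was 126, 70.8 and 112 CPM in MCT2 KO, where replicate 2 was the lowest of the 6 libraries. *Pfkfb4* had the same order among the knockouts, at 44.3 to 45.6 CPM in MCT2 CO and 53.7, 36.8 and 47.3 CPM in MCT2 KO. MCT2 KO replicate 2, which was highest of the 6 libraries for 12 of the 32 genes, was thus lowest for both. *Pfkfb2* had a log2 fold change of -0.32 (SE 0.21) at 2.13 to 3.54 CPM, and 92.2% of its exon bases lie in other listed genes.

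The enzymes that split and interconvert the triose phosphates were higher in MCT2 KO. *Aldoa*, the ubiquitous aldolase, had 746, 951 and 629 CPM in MCT2 CO and 1056, 1137 and 1208 CPM in MCT2 KO. The groups did not overlap, the fold was 1.46 (log2 fold change 0.55, SE 0.16) and the DESeq2 adjusted p of 0.0533 fell just short. Of its exon bases 50.6% lie in another listed gene, *Fam57b*, which had 131 counts over the 6 libraries under its newer symbol *Tlcd3b*. *Aldoc*, the brain-type aldolase, was higher by a log2 fold change of 0.82 (SE 0.38), but its groups overlapped at 3.27 to 9.92 CPM against 9.3 to 16.3 CPM, and without MCT2 CO replicate 3 the value was 0.47. *Tpi1*, triose phosphate isomerase, stood at 394, 488 and 355 CPM in MCT2 CO and at 515, 619 and 589 CPM in MCT2 KO. These did not overlap (log2 fold change 0.48, SE 0.14, DESeq2 adjusted p = 0.0761), and the lowest value over the alternative fits was 0.32.

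Among the later steps, which regain ATP, the kinases, the dehydrogenase and the mutase were higher in every MCT2 KO library than in any MCT2 CO library. *Gapdh*, which makes NADH from glyceraldehyde 3-phosphate (chr6:125161715-125166467, minus strand), rose from 779, 920 and 749 CPM in MCT2 CO to 1089, 1227 and 1131 CPM in MCT2 KO. Every knockout library exceeded every control, with a fold of 1.41 (log2 fold change 0.49, SE 0.11, DESeq2 adjusted p = 0.00874, edgeR adjusted p = 0.37). *Pgk1*, the first ATP-making kinase of the pathway, was 188, 202 and 171 CPM in MCT2 CO against 220, 280 and 251 CPM in MCT2 KO. *Pgam1*, phosphoglycerate mutase, was 47, 50.5 and 47.4 CPM against 55.1, 71.8 and 60.6 CPM. Neither overlapped, at log2 fold changes of 0.42 (SE 0.11) and 0.37 (SE 0.11), and neither passed an adjusted threshold. Over the alternative fits, which include leaving out both libraries that stood apart, the lowest values were 0.39 for *Gapdh*, 0.28 for *Pgk1* and 0.25 for *Pgam1*. *Pkm*, pyruvate kinase, had the highest CPM of the 32 genes, at 1595, 1951 and 1652 CPM in MCT2 CO and 2016, 2341 and 2270 CPM in MCT2 KO. Its groups lay close but apart, with a log2 fold change of 0.35 (SE 0.12).

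The enolases separated by isoform. *Eno1*, the ubiquitous enolase (chr4:150236721-150248879, plus strand), rose from 340, 453 and 355 CPM in MCT2 CO to 491, 623 and 557 CPM in MCT2 KO, a fold of 1.46 (log2 fold change 0.54, SE 0.14, DESeq2 adjusted p = 0.0359, edgeR adjusted p = 0.396). Its lowest log2 fold change over the alternative fits was 0.40. *Eno2*, the neuronal enolase (chr6:124760053-124769673, minus strand), stood at 22.5, 24 and 21.8 CPM in MCT2 CO and at 18.1, 17.6 and 20.7 CPM in MCT2 KO. It was the only one of the 32 genes whose knockout libraries all lay below the controls (log2 fold change -0.28, SE 0.10, edgeR adjusted p = 0.491). *Eno3*, the muscle enolase, had a log2 fold change of 0.14 (SE 0.13), with overlap.

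Many of these enzymes have processed copies elsewhere in the genome, and how reads that fit several places were counted is not given in the sources used here. Of all 50-base stretches of the gene's exons, 53.9% in *Pgk1*, 36.2% in *Pgam1*, 26% in *Eno1*, 25.8% in *Pkm*, 25.1% in *Gapdh*, 15.8% in *Gpi1* and 12.2% in *Pgm1* also occur in another annotated gene. Their values are therefore less certain than those of *Pdk1*, *Hk2* and *Hk3*, where the share was 0. Not all of this sharing is with copies elsewhere. In *Pgm1* it is only with *Itgb3bp*, which overlaps it, and in *Pkm* partly with the overlapping *Gm49759*. *Eno1b*, an annotated copy of *Eno1*, had 154 counts over the 6 libraries.

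**Figure D2:**
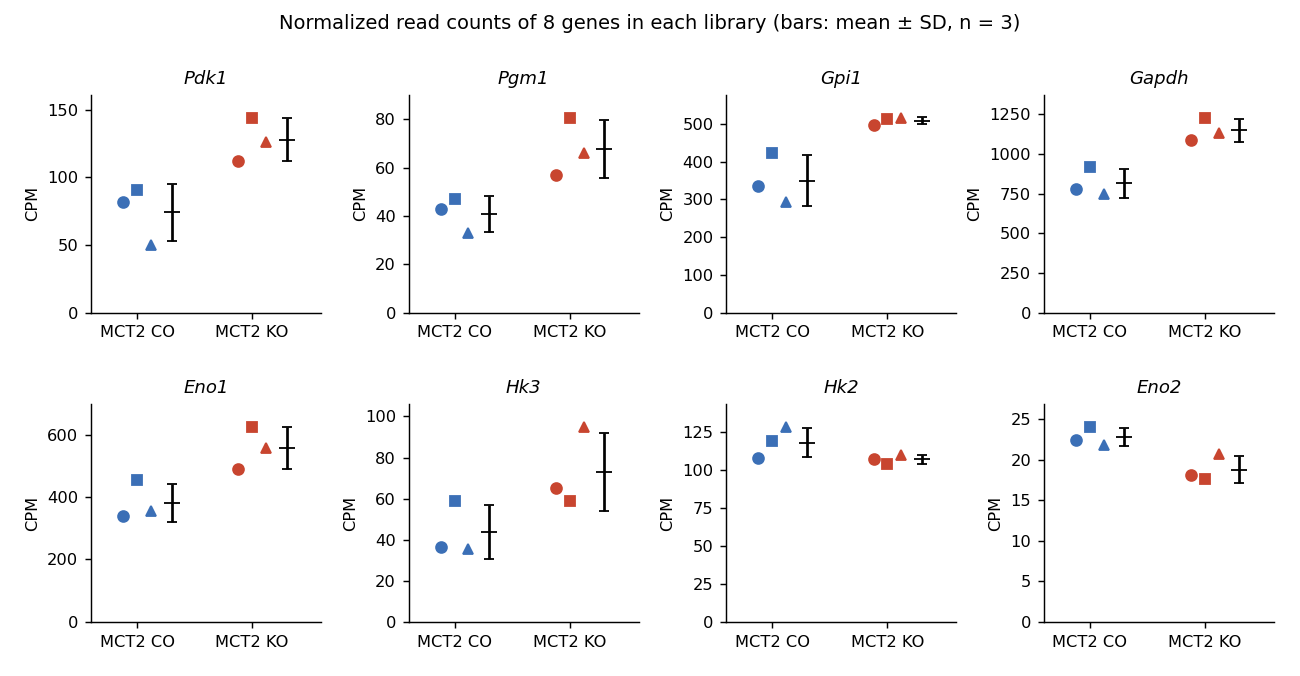
CPM of 8 of the genes in each library on axes that start at 0, with MCT2 CO in blue and MCT2 KO in red (circle, square and triangle for replicates 1, 2 and 3) and the mean ± SD beside the points (n = 3). The groups stand apart for all genes but *Hk2*, barely so for *Hk3*, and *Eno2* is the one that lies lower in MCT2 KO.

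The branch to glycogen showed one of the largest differences of the set. *Pgm1* (chr4:99929414-99987294, plus strand) encodes a phosphoglucomutase, the enzyme between glucose-6-phosphate and the glucose 1-phosphate of glycogen, and rose from 42.7, 47.2 and 32.8 CPM in MCT2 CO to 56.8, 80.6 and 66.2 CPM in MCT2 KO. All knockout libraries were above all controls, with a fold of 1.66 (log2 fold change 0.73, SE 0.17, DESeq2 adjusted p = 0.0132, edgeR adjusted p = 0.37). *Pgm2*, which acts mainly on pentose phosphates, went slightly the other way at 64.5 to 77.2 CPM in MCT2 CO and 60.7 to 67.4 CPM in MCT2 KO (log2 fold change -0.12, SE 0.09). Without MCT2 CO replicate 3 and MCT2 KO replicate 2 the *Pgm1* value was 0.45, in the same direction. In *Pgm1*, 13.6% of the exon bases lie in *Itgb3bp*.

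At the entry to the mitochondrion the difference was in a single kinase. *Pdk1* (chr2:71873224-71903858, plus strand) encodes pyruvate dehydrogenase kinase 1, a known HIF-1 target that lowers flux from pyruvate to acetyl-CoA, and rose from 81.8, 90.7 and 49.9 CPM in MCT2 CO to 112, 144 and 126 CPM in MCT2 KO. The groups did not overlap and the fold was 1.72 (log2 fold change 0.78, SE 0.21, DESeq2 adjusted p = 0.0319, edgeR adjusted p = 0.396). MCT2 CO replicate 3 was the lowest library by a wide margin, and the log2 fold change was 0.56 without it and 0.47 without it and MCT2 KO replicate 2. *Pdk3* was 61.9 to 64.6 CPM in MCT2 CO and 60.9 to 78.3 CPM in MCT2 KO, and *Pdk2* had a log2 fold change of 0.18 (SE 0.18). *Pdk4*, the kinase induced by fasting and fatty acids, was near the lower limit of counting at 18 to 49 counts per library.

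The complex itself and its phosphatase hardly differed. *Pdha1*, the E1 alpha subunit that the kinases phosphorylate, was 107 to 112 CPM in MCT2 CO and 111 to 125 CPM in MCT2 KO (log2 fold change 0.12, SE 0.08). *Pdhb*, the E1 beta subunit, had a log2 fold change of -0.05 (SE 0.08). *Pdp1*, the phosphatase that reactivates the complex, had one of 0.15 (SE 0.11). The groups of all 3 overlapped, and none reached an unadjusted p under 0.05.

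**Figure D3:**
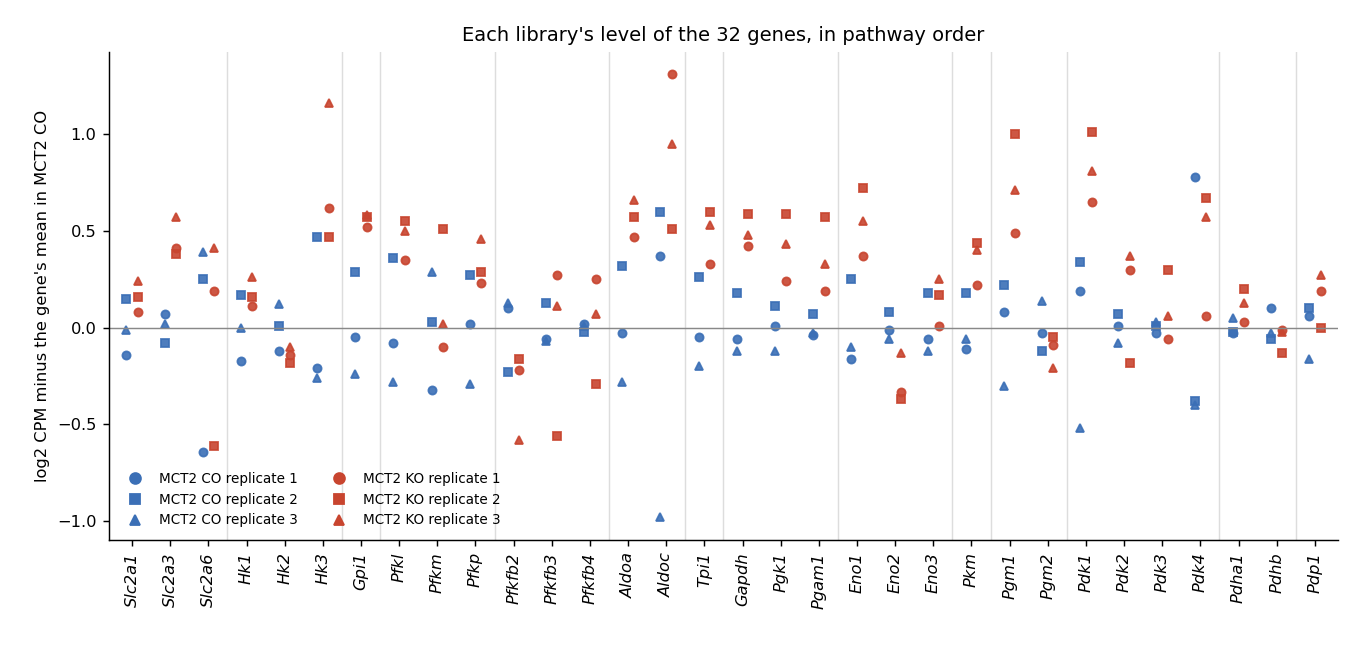
Level of each of the 32 genes in each library as log2 CPM relative to the mean of the MCT2 CO libraries, by gene in pathway order. MCT2 KO replicates 2 and 3 hold the highest value of the 6 libraries for 12 and 11 genes, and MCT2 CO replicate 3 holds the lowest for 14.

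Within the controls the libraries were not alike. MCT2 CO replicate 2 was the control closest to the knockouts: the 32 genes together took 0.59%, 0.714% and 0.583% of the counts in MCT2 CO replicates 1, 2 and 3, and 0.735%, 0.883% and 0.839% in MCT2 KO. Fibroblast markers, which were also counted in these CD11b+ fractions, summed to 2053 to 3368 CPM in MCT2 CO, highest in replicate 3, and to 1735 to 1834 CPM in MCT2 KO. Stress genes of tissue dissociation summed to 10958 to 12884 CPM in MCT2 CO and 8812 to 10845 CPM in MCT2 KO. All 6 tested B cell markers were below 0, with sums of 24.5 to 27.3 CPM in MCT2 CO and 12.9 to 21.8 CPM in MCT2 KO. Of 6 NK cell markers 5 were below 0, while their sums overlapped at 19.6 to 30.9 CPM and 20.2 to 36.5 CPM. Macrophage markers had a median log2 fold change of 0.25, equal to that of the 32 genes, with all 10 above 0 but none at an unadjusted p under 0.05. The part of these lists in the values above was not tested. Without both libraries that stood apart, 27 of the 32 genes were higher, with 50.4% of all genes in that fit, and 12 had an unadjusted p under 0.05, with 9.25% of all genes.

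Isoform use within a family was compared as the share of the family's level per kilobase of exon that lies in no other gene, so that only unequal change within a library counts. The *Hk2* share of the hexokinases was 43.3% ± 4.6 (SD, n = 3) among controls and 33.5% ± 2.99 (SD, n = 3) among knockouts, and the *Hk3* share was 25.7% ± 4.89 and 36.6% ± 5.01. Per kilobase, *Hk2* was thus the leading hexokinase in each control library, whereas in MCT2 KO *Hk3* led in replicate 3 and both were close in replicates 1 and 2. The order depends on the exon length used. By CPM, *Hk1* exceeded *Hk2* in MCT2 CO replicate 2 (136 against 119 CPM). In every MCT2 KO library *Hk1* was the highest hexokinase by CPM, at 131, 136 and 146 CPM. *Hk3* was the lowest there, at 65.3, 59 and 94.7 CPM. The *Eno1* share of the enolases was 87.2% ± 0.944 and 91.1% ± 0.905, and the *Eno2* share 6% ± 0.609 and 3.55% ± 0.501. *Pgm1* made up 37.4% ± 6.42 of the phosphoglucomutases in MCT2 CO and 51.7% ± 4.15 in MCT2 KO. *Pdk1* made up 25.8% ± 5.92 of the kinases and 35.8% ± 0.445, while *Pdk3*, the leading kinase per kilobase in every library, went from 68% ± 5.95 to 58.4% ± 1.07. By CPM, *Pdk1* was above *Pdk3* in every MCT2 KO library and in MCT2 CO replicates 1 and 2. Only in MCT2 CO replicate 3 was it below (49.9 against 64.6 CPM). The groups did not overlap in any share named here. Each of these shares gave p = 0.1 in an exact two-sided permutation test, the smallest p that 3 against 3 libraries allow. In all, 23 shares were computed, so these p-values pass no threshold.

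**Figure D4:**
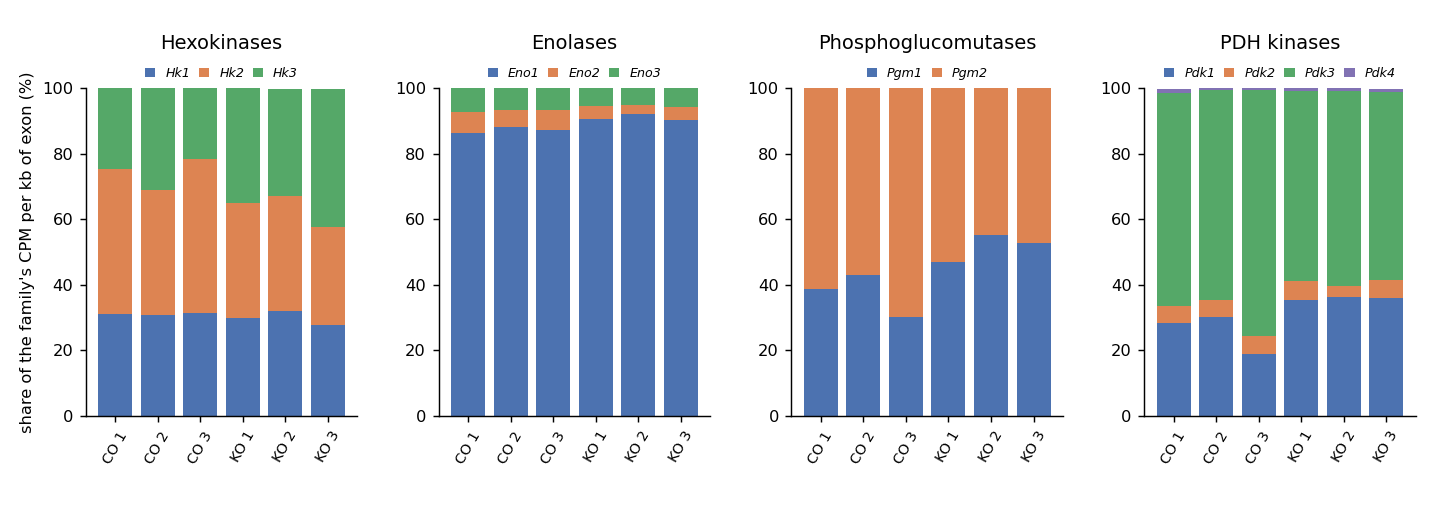
Share (%) of each isoform in the summed CPM per kilobase of its family, as stacked bars for each of the 6 libraries in 4 families. Within hexokinases, phosphoglucomutases and pyruvate dehydrogenase kinases the bands of *Hk3*, *Pgm1* and *Pdk1* are wider in all MCT2 KO libraries than in any MCT2 CO library and *Eno1* fills most of the enolase bar in both groups.

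Per kilobase, the order of levels in MCT2 CO ran from *Aldoa* (539 CPM per kilobase) over *Pkm* (409), *Gapdh* (201) and *Tpi1* (152) down to *Pdk4* (0.285), and the same 4 genes led in MCT2 KO at 788, 522, 283 and 211 CPM per kilobase. *Slc2a1* (85.3 CPM per kilobase) and *Pgk1* (83.3) were neighbours in MCT2 CO. In *Aldoa* the overlap with *Fam57b* shortens the length used, so its place at the top is uncertain.

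Lists of genes of neighbouring pathways were read in the same fit. Among 7 lactate genes, *Ldha*, the lactate dehydrogenase subunit that favours lactate, and *Slc16a3*, the lactate exporter MCT4, were higher at an unadjusted p under 0.05, with log2 fold changes of 0.42 (SE 0.14) and 0.63 (SE 0.27). *Slc16a3* was lowest in MCT2 CO replicate 3, at 35.7 CPM against 69 and 86.9 CPM in the other controls. The targeted *Slc16a7* was the 1 gene of that list that was lower at an unadjusted p under 0.05. *Slc16a1*, the carrier MCT1, had a log2 fold change of -0.19 (SE 0.09, edgeR unadjusted p = 0.0681). Every MCT2 KO library lay below every MCT2 CO library for it, as in 8.77% of all genes tested. Among 13 glycogen genes, *Gys1*, glycogen synthase, and *Pygl*, the liver-type phosphorylase, were higher with log2 fold changes of 0.50 (SE 0.13) and 0.78 (SE 0.16), and *Pygm*, the muscle type, was lower at -1.04 (SE 0.29). *Pygl* was called by DESeq2 (adjusted p = 0.00718). An enzyme that builds glycogen and one that breaks it down were thus both higher, as was *Pgm1*. The list as a whole had no common direction, with 7 genes above 0, 6 below and a median of 0.05. *Pygb*, the phosphorylase with the highest CPM, hardly differed (log2 fold change 0.07, SE 0.08).

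The remaining lists held few genes at an unadjusted p under 0.05, a limit that 3.77% of all genes tested passed as higher and 5.6% as lower. Of 9 pentose phosphate genes tested, *Pgd* and *Tkt* passed it as higher with log2 fold changes of 0.23 and 0.19. The gene of the first enzyme of that branch, *G6pdx*, was listed at 0 counts, and all of its exon bases lie in *Ikbkg*. Of 14 other glycolysis and gluconeogenesis enzymes 9 had a log2 fold change above 0 and 5 below, and *G6pc3* (0.25) was the 1 that passed the limit. Of 9 other pyruvate entry genes 7 were above 0 and 2 below, and *Pdpr* (0.29), a subunit of the pyruvate dehydrogenase phosphatase, was the 1 that passed. Of 6 other transporters 3 were above 0 and 3 below, and *Slc5a2* (-1.28), at 6 to 36 counts per library, was the 1 that passed. Of 12 other regulators 5 were above 0 and 7 below, and *Myc* (-0.38) was the 1 that passed.

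Genes known to respond to low oxygen but outside glycolysis were mostly higher. Of 17 such genes 16 had a log2 fold change above 0, with a median of 0.20, and 4 were higher at an unadjusted p under 0.05. These were *Adm* (0.99), *Bnip3* (0.84), *Ankrd37* (0.54) and *Ndrg1* (0.34), of which DESeq2 called *Adm* and *Bnip3*. *Vegfa*, the classical member of that list, was 208 to 307 CPM in MCT2 CO and 201 to 331 CPM in MCT2 KO. Of 8 oxygen sensing genes, which include *Hif1a* (-0.03, SE 0.08), 3 were above 0 and 5 below, and none reached an unadjusted p under 0.05. *Egln3*, a HIF prolyl hydroxylase that itself responds to low oxygen, is in both lists (log2 fold change 0.33, SE 0.19), and the difference between the lists was not tested. HIF-1 protein is regulated mainly by degradation, so the *Hif1a* RNA level does not report its activity.

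**Figure D5:**
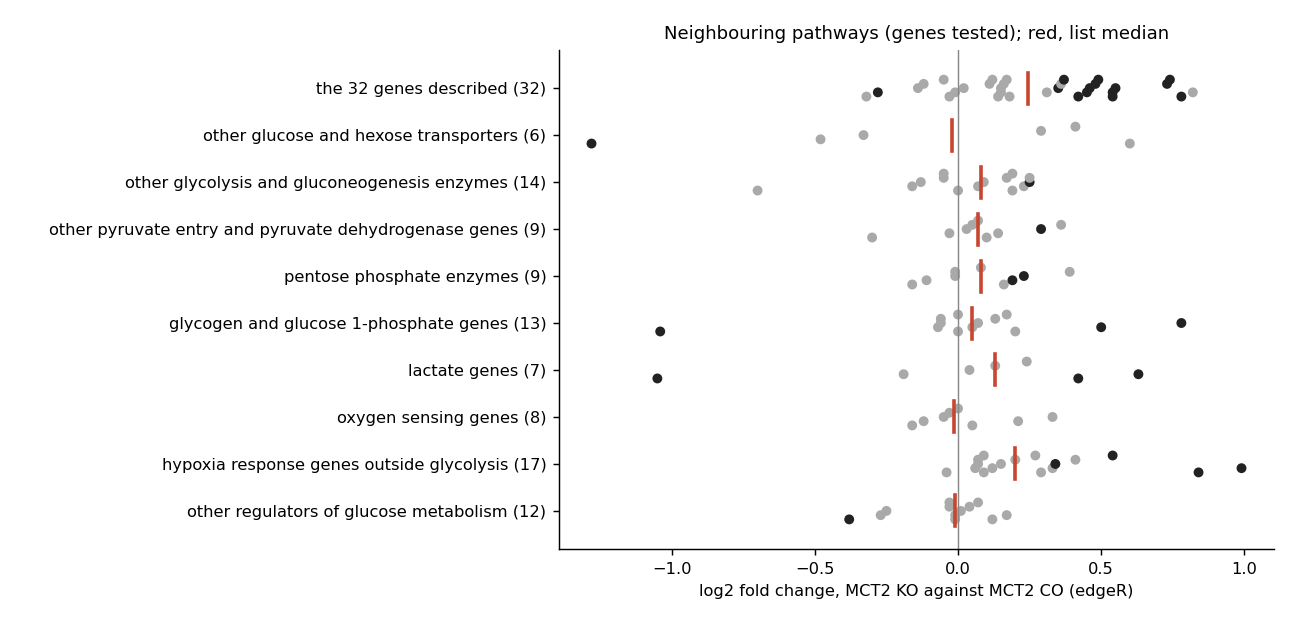
log2 fold change (MCT2 KO relative to MCT2 CO, edgeR) of every tested gene, 1 point each, in the 32 genes described and in 9 neighbouring lists, with a red bar at each list's median and black points at an unadjusted p under 0.05. The medians are 0.25 for the 32 genes, 0.20 for hypoxia response genes and between -0.02 and 0.13 for the other lists.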

How the data were processed

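Poly-A RNA of CD11b+ cells was sequenced from stranded libraries. The authors aligned reads with STAR 2.7.11b to GRCm38 and counted them per gene with featureCounts 2.1.1, and the deposited table holds raw counts for 6 libraries. The deposited length column equals the whole gene span for all 25701 genes and was not used. Reads in introns may thus have been counted too, whereas levels per kilobase and isoform shares used exon length only. Only 2.4% of the deposited positions match GENCODE M21, from which positions and exons were taken. The tool list in the submitters' processing notes also names FastQC 0.12.0, MultiQC 1.28 and DESeq2 1.18.1.

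Counts were tested here in edgeR 4.0.16 (R 4.3.3; filterByExpr with a minimum count of 10 and minimum total of 15, TMM normalization, quasi-likelihood test, Benjamini-Hochberg over 13485 genes). Genes were called at a 0.05 limit on adjusted p and a log2 fold change of 0.58 or more in size. DESeq2 1.42.0 ran on the 14202 genes with at least 1 count. Replicates of a group were compared and none was a duplicate. Replicate numbers did not pair the libraries (correlations of deviations 0.22, -0.25 and -0.16). The code was tested on simulated data. Alternatives were limma-voom 3.58.1, other normalizations and filters, a replicate block and leaving out each library. Named genes were the 32 genes, *Slc16a7* and list genes at an unadjusted p under 0.05. *Slc16a1* and *Egln3*, which did not reach that limit, were named as well. *Hif1a*, *Vegfa*, *Itgam*, *Eno1b*, *G6pdx*, *Csf3r* and *Pygb* were added after their values were seen. The 32 genes and all lists were chosen with earlier results of these data known. Promoter windows came from RefSeq (GRCm38.p6).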

Additional observations from a re-analysis of the deposited data

How the results depend on the processing

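The number of genes called was 0 in edgeR with either normalization alternative, the stricter filter, limma-voom and the replicate block, 2 with no filter on low counts, and 79 (filtered genes) and 83 (all genes with a count) with DESeq2. Both DESeq2 fits called 2 of the 32 genes, with log2 fold changes of 0.74 (*Pgm1*) and 0.79 (*Pdk1*). Leaving out 1 library at a time gave 0 to 2 called genes (2 without MCT2 KO replicate 2) and 0 called among the 32. Across these fits 11 to 16 of the 32 genes had an unadjusted p under 0.05 (5.8% to 11.6% of all genes), the median log2 fold change was 0.19 to 0.32, 24 to 27 genes were higher, and the groups of 14 to 21 genes did not overlap (21 without MCT2 CO replicate 2), as with 22.1% to 31.8% of all genes when fewer libraries had to stay apart. Without MCT2 CO replicate 3 and MCT2 KO replicate 2 together, an alternative chosen after seeing the data, 10 genes were called, none of them among the 32, and *Pgm1* and *Pdk1* had log2 fold changes of 0.45 and 0.47.

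The direction turned in 4 genes with small values. *Slc2a6* (-0.01) was 0.00 with DESeq2 on all genes, -0.27 to 0.25 with 1 library left out and 0.45 without both libraries. *Pfkfb3* (-0.03) was -0.19 to 0.19 with 1 library left out and 0.15 without both. *Pfkm* (0.15) was -0.06 to 0.30 and *Pfkfb4* (0.02) -0.09 to 0.16 with 1 library left out. The cause was not tested. The *Eno1* share difference was 3.88 percentage points per kilobase and 2.82 percentage points as shares of counts.

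With the replicate number as a block, which the labels do not tie to a shared animal or day, 0 genes and 0 of the 32 were called, 14 of the 32 genes had an unadjusted p under 0.05, 25 were higher, and the median was within the range above. With 3 libraries a group, differences in genes such as *Pdk4* (18 to 49 counts) were not resolved at this depth.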
